A study of Rattus norvegicus with 2 samples.

Results

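The genes of osteoclast differentiation and bone resorption were examined in the transcript annotation that was assembled from rat femur RNA. The 10 genes were Csf1, Csf1r, Tnfsf11, Tnfrsf11a, Tnfrsf11b, Nfatc1, Calcr, Acp5, Ctsk and Mmp9, and a transcript model was assigned to a gene when its gene name equalled the symbol, with case and the endings _predicted and _mapped ignored. Of the 10 genes, 7 had a model under their symbol, with 12 models in all among the 43391 models of the annotation. For comparison, 25.4% of the 20978 protein-coding RefSeq genes with a symbol other than LOC and a number had a model under their current symbol. Tnfrsf11a, Calcr and Nfatc1 were not found by name, and 1 of these, Tnfrsf11a, was present under an older symbol. The labels describe 1 OVX sample, a wild-type Wistar rat after bilateral ovariectomy, and 1 SHAM sample, a wild-type Wistar rat after a sham operation, both female and both marked 16 weeks without a starting point. They also carry the names Old for the OVX sample and Young for the SHAM sample, so the operation and a difference in age cannot be told apart from the labels. Whole femur was ground before RNA extraction, so the RNA can come from any cell of the bone piece. The files hold models and no read counts, expression values or coverage. No expression of these genes was therefore compared between OVX and SHAM, and depth is unknown.

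Osteoclasts are large multinucleated cells of the monocyte and macrophage lineage that dissolve bone. Their precursors need macrophage colony-stimulating factor, encoded by Csf1 and sensed by the receptor Csf1r, and then RANKL, encoded by Tnfsf11, which stromal cells, osteoblasts and osteocytes present to the receptor RANK, encoded by Tnfrsf11a. Osteoprotegerin, encoded by Tnfrsf11b, is a soluble decoy that binds RANKL, and RANK signalling switches on the transcription factor Nfatc1. The mature cell secretes the acid phosphatase TRAP (Acp5), the collagen-degrading protease cathepsin K (Ctsk) and the gelatinase Mmp9, and it carries the calcitonin receptor (Calcr). Loss of estrogen after ovariectomy is a standard model of bone loss through increased resorption.

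Each model carries a class code, which says how it relates to the reference transcripts, and a number of samples, which is 1 or 2. A full-chain model (code =) has every intron of a reference transcript, a new-junction model (code j) shares at least 1 splice junction with a reference transcript and differs at another, and a contained fragment (code c) lies within a reference transcript and matches a part of its introns. Of the 12 models, 4 were full-chain models, 4 were new-junction models and 4 were contained fragments. Among the 38814 models of known genes, which are defined below, 5963 were full-chain models, 9873 new-junction models and 21663 contained fragments. A number of samples of 2 means that the same intron chain was present in both of the merged assemblies, called here the first and the second assembly by the order of their numbering. The paper describes sequencing of several rats per group, whereas the labels name 1 sample of each. Which rats entered either assembly is not given in the sources used here. Of the 12 models, 4 were in both assemblies, 4 in the first assembly only and 4 in the second assembly only. Of the 38814 models of known genes, 4718 were in both assemblies. Positions are those of the file, whose build was not settled: the processing notes name rn4, whereas the sequence names resemble those of the Celera rat assembly. A shared model is listed with 1 set of outer ends, so the ends of its terminal exons do not show both assemblies.

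The models differed in completeness from gene to gene. The resorption genes Acp5, Ctsk and Mmp9 each had a full-chain model in both assemblies. The growth factor receptor Csf1r had a long model in both assemblies, and Csf1 was complete in the second assembly only. The RANKL gene Tnfsf11 and the osteoprotegerin gene Tnfrsf11b were each present as 1 short contained fragment in 1 assembly. Among the 7 genes found by symbol, 5 had models in both assemblies, against 76.9% of the 12308 known genes of the annotation, a known gene being a locus with a gene name that is not on the authors' list of new genes. A model shared by both assemblies was present for 4 of the 7 genes and for 31.0% of known genes. A full-chain model was present for 4 of the 7 and for 38.6% of known genes, whereas 2 of the 7 and 27.3% of known genes had contained fragments alone. With 7 genes these shares are a description, and no test was run on them.

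**Figure D1:**
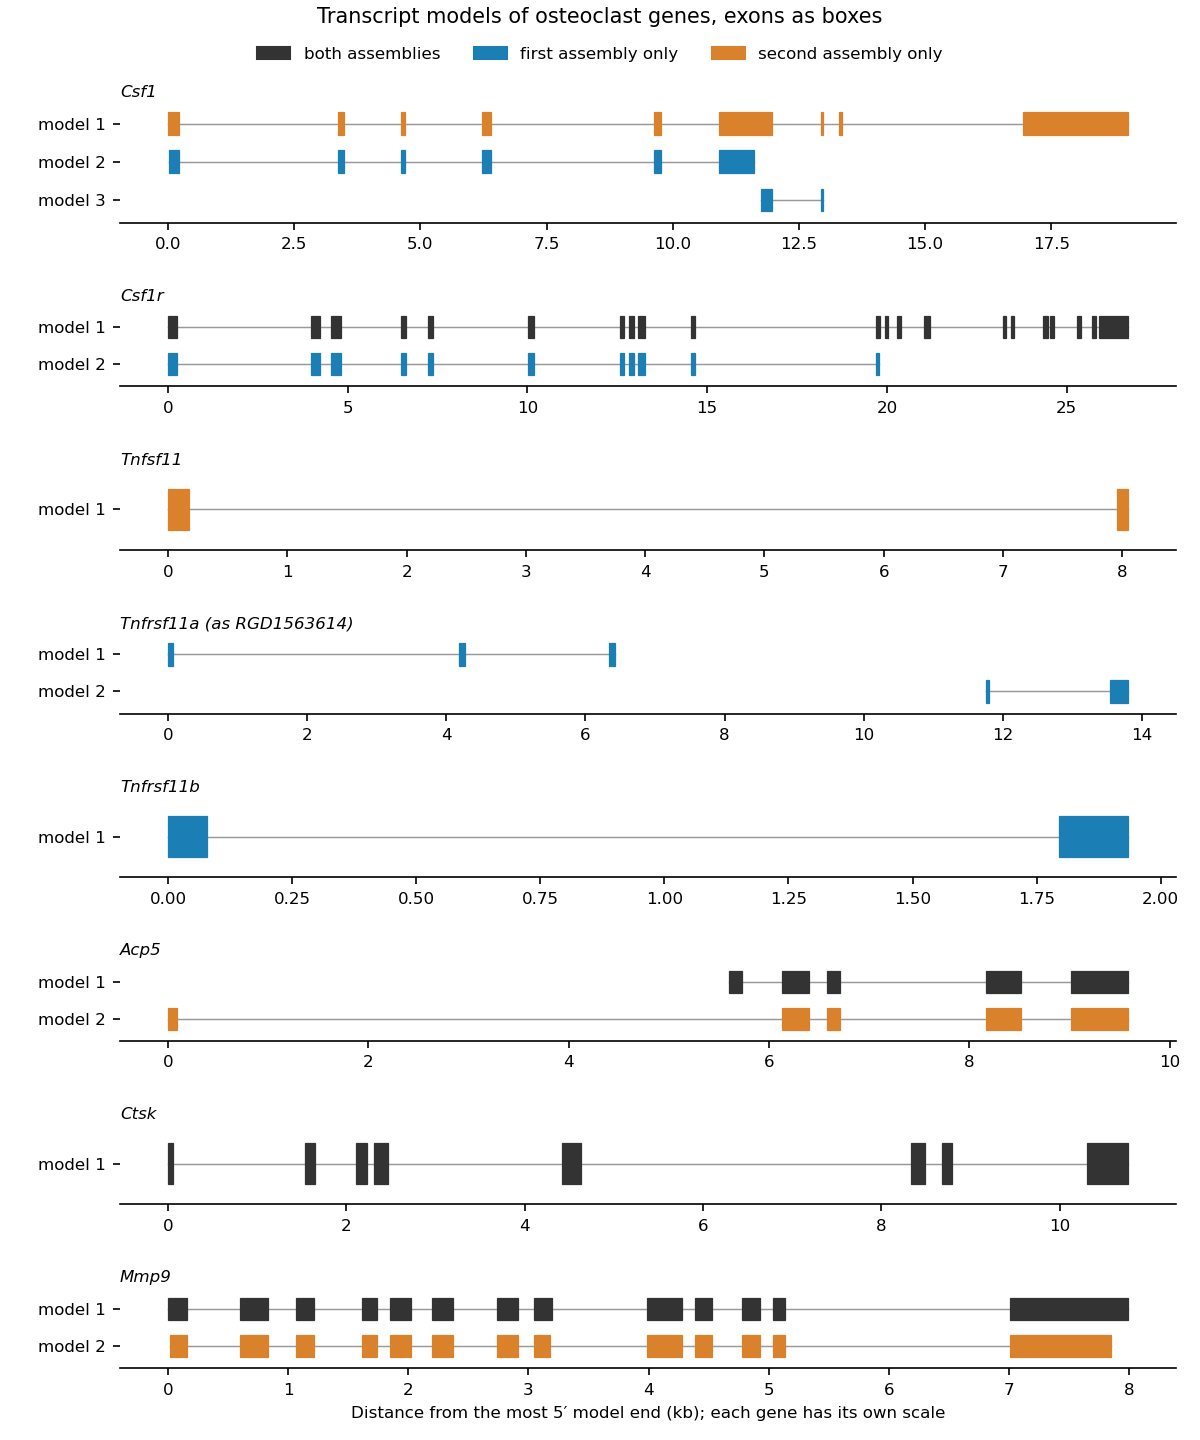
Transcript models of the 8 osteoclast genes that had any, with exons as boxes and introns as lines; the horizontal axis is the distance in kb from the most 5′ model end, with a separate scale for each gene, and colour gives the assembly. The models of Acp5, Ctsk, Mmp9 and Csf1r in black were in both assemblies, whereas Tnfsf11, Tnfrsf11a and Tnfrsf11b have short pieces in 1 assembly.

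Acp5 encodes tartrate-resistant acid phosphatase, a classical marker enzyme of osteoclasts. The gene (XLOC_008746, chromosome 8, 22052726 to 22062308, minus strand) had 2 models with different 5′ ends. The first, a full-chain model in both assemblies, had 5 exons and 1435 bp of exon sequence. In transcript order its exons measured 132, 267, 128, 346 and 562 bp. The second, a new-junction model in the second assembly only, also had 5 exons, with 94, 267, 128, 346 and 565 bp. The models thus shared 3 introns and differed in the 5′-most exon, and the outer end of the 3′ exon differed by 3 bp. The intron after the 5′-most exon was 398 bp long in the shared model and 6033 bp in the other, and both introns ended at the same acceptor of the 267 bp exon. The 5′ ends of the models lay 5597 bp apart and carried different start site identifiers. The models referred to different reference transcripts.

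The 3′ exon of Acp5 also coincided with a model on the opposite strand. This model (rCG_31905, 22028580 to 22053365, plus strand, second assembly only) had 2 exons and 658 bp, of which 548 bp overlapped the 3′ exon of Acp5. Its class code (o) stands for a same-strand exon overlap with its own reference transcript that matches no splice junction. Whether the libraries kept strand is not given in the sources used here, so reads of Acp5 and of this model cannot be told apart in the overlap.

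RefSeq lists more than 1 start of Acp5, and its upstream sequences are printed because the models of this gene differ in the 5′ end. The table used here (build GRCr8) holds 2 windows for Acp5, whose start sites lie 2001 bp apart, against 5597 bp between the models. The annotation analysed here is on another build, so neither window was matched to a model. The 250 bases before each start are given 5′ to 3′ on the strand of the gene, with capitals where a searched motif matched. The motifs were GGAAA (the core bound by NFAT factors), TGANTCA (AP-1), GAGGAA (a core of PU.1 sites) and TATAAA (the TATA box), each on both strands. GAGGAA and GGAAA can overlap when GAGGAA is followed by A.

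Acp5, distal start (chr8:28945931-28946180, minus strand): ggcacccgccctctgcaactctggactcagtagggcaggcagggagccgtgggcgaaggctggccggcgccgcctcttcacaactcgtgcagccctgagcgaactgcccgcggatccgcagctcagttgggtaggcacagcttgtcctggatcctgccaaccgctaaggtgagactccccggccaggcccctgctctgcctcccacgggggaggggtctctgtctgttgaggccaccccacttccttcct

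Acp5, proximal start (chr8:28943930-28944179, minus strand): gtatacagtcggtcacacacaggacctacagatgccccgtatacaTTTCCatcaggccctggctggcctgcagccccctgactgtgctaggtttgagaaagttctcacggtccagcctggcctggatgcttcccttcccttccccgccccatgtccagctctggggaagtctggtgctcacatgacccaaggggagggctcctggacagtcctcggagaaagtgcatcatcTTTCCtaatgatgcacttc

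Ctsk (chr2:185747298-185747547, plus strand): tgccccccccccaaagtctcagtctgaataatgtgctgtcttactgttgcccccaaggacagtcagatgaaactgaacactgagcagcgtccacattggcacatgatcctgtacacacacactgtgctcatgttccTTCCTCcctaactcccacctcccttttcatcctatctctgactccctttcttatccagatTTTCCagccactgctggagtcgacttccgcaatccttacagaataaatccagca

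No searched motif occurred in the distal window of Acp5. The proximal window held 2 matches to GGAAA, both on the opposite strand, which begin at -205 and -19 relative to the start. The 250 bases before the start of Ctsk held 1 match to GGAAA at -54 and 1 to GAGGAA at -114, also on the opposite strand. Over the 33469 RefSeq windows of the same length, 56.9% held GGAAA, 23.3% GAGGAA, 12.9% TATAAA and 6.34% TGANTCA. The matches describe these letters alone. Of the 10 genes, 5 had a window in the table, namely Acp5, Ctsk, Calcr, Tnfsf11 and Csf1r. The window of Csf1r held 2 matches to GGAAA and 2 to GAGGAA, and that of Calcr held none. That of Tnfsf11 held 1 match to GAGGAA and 1 to TATAAA. The match to TATAAA, at -32, lay on the opposite strand, and the strand of the gene does not read TATAAA there. G and C made up 67.2% of the distal and 57.2% of the proximal window of Acp5 and 49.6% of that of Ctsk. The shares were 70% for Calcr, 61.6% for Tnfsf11 and 52% for Csf1r.

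Ctsk encodes cathepsin K, the main collagen-degrading protease of the resorption space. It had a single model that was a full-chain model in both assemblies (XLOC_002440, chromosome 2, 175591792 to 175602557, plus strand). The model had 8 exons and 1403 bp, with exons of 53, 121, 123, 156, 219, 166, 106 and 459 bp from the 5′ end. Of the 12308 known genes, 3789 had 1 model. The nearest other models were 2 of Arnt on the same strand, which ended 3575 bp and 3884 bp before the 5′ end of Ctsk.

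Mmp9 encodes gelatinase B, which osteoclasts and their precursors as well as neutrophils produce. The gene (XLOC_003753, chromosome 3, 152289445 to 152297435, plus strand) had 2 models of 13 exons. The full-chain model, in both assemblies, had 3015 bp, and the new-junction model, in the second assembly only, had 2841 bp. The models shared 11 introns and differed in intron 8. Exon 8 measured 156 bp in the full-chain model and 138 bp in the other, which left the exon 18 bp earlier and joined the same acceptor of exon 9. The 18 bp amount to a whole number of codons, although the reading frame was not examined. The remaining difference lay in the outer ends, with a 5′ exon of 162 against 144 bp and a 3′ exon of 980 against 842 bp. No model of another gene lay within 5 kb of Mmp9.

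Acp5 and Mmp9 therefore had the same arrangement, a full-chain model shared by both assemblies and a new-junction model from the second assembly. Among known genes, 2476 (20.1%) had a full-chain model in both assemblies, and 660 of these (26.7%) also had a new-junction model. This count takes new-junction models of any assembly, not of the second alone.

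Csf1r encodes the receptor tyrosine kinase for macrophage colony-stimulating factor, which macrophages, monocytes and osteoclast precursors share. The gene (XLOC_015058, chromosome 18, 52716029 to 52742735, plus strand) had the most exons among these genes. Its long model had 21 exons and 3757 bp and was in both assemblies. Of known genes, 97.4% had fewer exons in their longest chain and 93.9% a shorter exon sequence. The other model, in the first assembly only, had 11 exons and 1888 bp, and all of its 10 introns were those of the long model. It ended 76 bp into exon 11, an exon of 127 bp in the long model, and thus 6941 bp before the 3′ end of the long model. Both were new-junction models against the same reference transcript, so Csf1r had no full-chain model. The shorter model has only the first 10 introns of the long model, so by the definition of the code a junction that differs should lie among these. The exons of the reference transcript are not in the files used here, and which junction differs was not located. Both models carried the same 5′ end and the same start site identifier. Downstream, a contained fragment on the opposite strand (rCG_46587) lay 1037 bp from its 3′ end.

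Csf1 encodes the ligand of this receptor, a growth factor made by stromal and bone-forming cells. The gene (XLOC_003034, chromosome 2, 188024641 to 188043662, minus strand) had 3 models, none shared. In the second assembly it was a single full-chain model of 9 exons and 3973 bp, with exons of 216, 120, 63, 171, 148, 1061, 53, 59 and 2082 bp from the 5′ end. Exon 6, the long internal exon, encodes the stretch of the precursor that is present in the secreted form and spliced out of the short membrane-bound form. In the first assembly the gene was split into 2 contained fragments, which StringTie had numbered as separate genes. The larger, of 6 exons and 1391 bp, ran from the 5′ exon to a point 690 bp into exon 6. The smaller, of 2 exons and 258 bp, held the last 221 bp of exon 6 and 37 bp of exon 7. A gap of 150 bp within exon 6 separated them, and together they covered 911 of its 1061 bp. The last 2 exons, among them the 3′ exon of 2082 bp, had no model in the first assembly. The first assembly thus covered 1649 of the 3973 bp (41.5%). Presence in both assemblies without a shared model was common, at 45.9% of known genes.

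**Figure D2:**
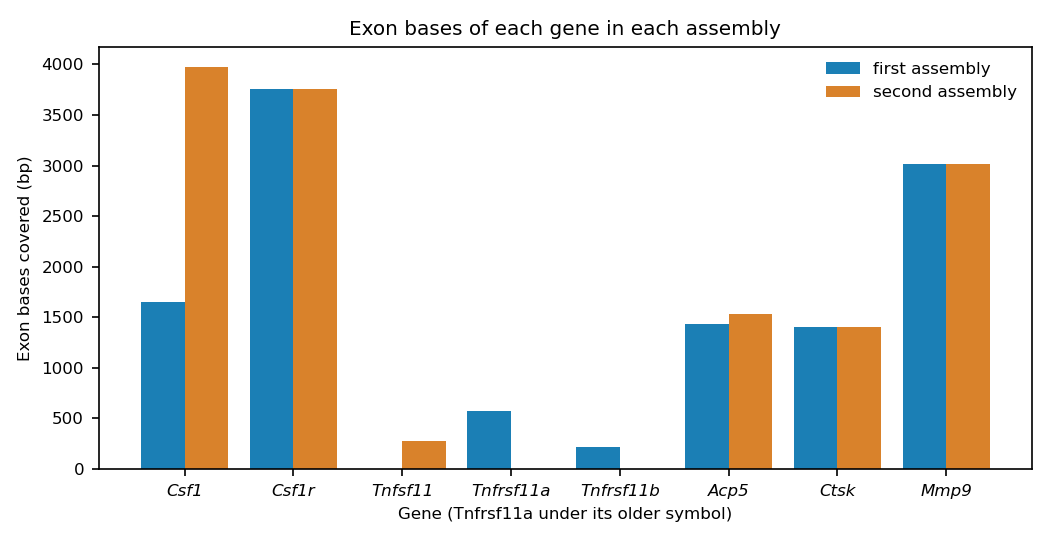
Exon bases of each gene, in bp, that the models of the first and of the second assembly covered, a model in both assemblies counting for each. Csf1 had 1649 bp in the first and 3973 bp in the second assembly. Csf1r, Ctsk and Mmp9 had equal bars by the way of counting, since their models in both assemblies cover all their exon bases. The outer ends of a shared model are listed once, so the bases at its ends were not seen for each assembly. Acp5 had 1435 bp in the first and 1532 bp in the second assembly.

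Tnfsf11 encodes RANKL, the ligand that drives precursors to become osteoclasts. The gene (XLOC_013840, chromosome 15, 53292844 to 53300890, minus strand) had 1 contained fragment, in the second assembly only. It had 2 exons of 177 and 96 bp, separated by an intron of 7774 bp, and 273 bp in all. Of known genes, 7.5% had a shorter longest model.

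Tnfrsf11b encodes osteoprotegerin, the decoy receptor that keeps RANKL from RANK. The gene (XLOC_007936, chromosome 7, 82392222 to 82394155, minus strand) also had 1 contained fragment, in the first assembly only. It had 2 exons of 79 and 140 bp with an intron of 1715 bp between them. Its 219 bp were the shortest total among these genes, and 1.99% of known genes had a shorter longest model. Of the 12308 known genes, 9462 (76.9%) had models in both assemblies and the others in 1 alone. The RANKL and osteoprotegerin fragments came from different assemblies. With 1 fragment each and with no depth given, this says nothing on the ratio of the RNAs.

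Tnfrsf11a encodes RANK, the receptor for RANKL on precursors and osteoclasts. No model carried its symbol. Its older symbol RGD1563614, which belongs to no other gene of the RefSeq table, was the name of a locus on the sequence of chromosome 13 (XLOC_012330, plus strand). This locus lay between the models of Relch and Phlpp1, which are next to and 2 places from Tnfrsf11a among the protein-coding genes in the current gene order. It held 2 contained fragments, both in the first assembly only. The 5′ fragment (21829375 to 21835802) had 3 exons and 259 bp, and the 3′ fragment (21841126 to 21843173) had 2 exons and 311 bp. They were separated by 5323 bp and numbered as separate genes by StringTie, and both referred to the same reference transcript. With this locus included, 8 of the 10 genes had a model, and the ligand, the receptor and the decoy of the RANK pathway were present as contained fragments alone.

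Calcr and Nfatc1 had no model under their symbol or under an older symbol. Calcr encodes the receptor through which calcitonin restrains osteoclasts, and Nfatc1 the transcription factor that directs their late differentiation. The nearest genes of the current order with a model were Cdk6 and Gng11 for Calcr, 7 and 3 places away, and Ctdp1 and Mbp for Nfatc1, 1 and 5 places away. Between Cdk6 and Gng11, 1158 kb held 11 models of 7 loci, of which 3 had only a name of the rCG series and 3 were on the list of new genes. Between Ctdp1 and Mbp, 1919 kb held 16 models of 5 loci, among them LOC291411 and rCG_20532. Any of these loci could belong to another gene of the interval, so that none was assigned to Calcr or Nfatc1. A gene without a model under its name can be present under another name, and without depth its absence from the tissue cannot be read from these files. None of the 8 genes with models had a new gene within 5 kb. The closest lay 15.4 kb from Acp5.

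**Figure D3:**
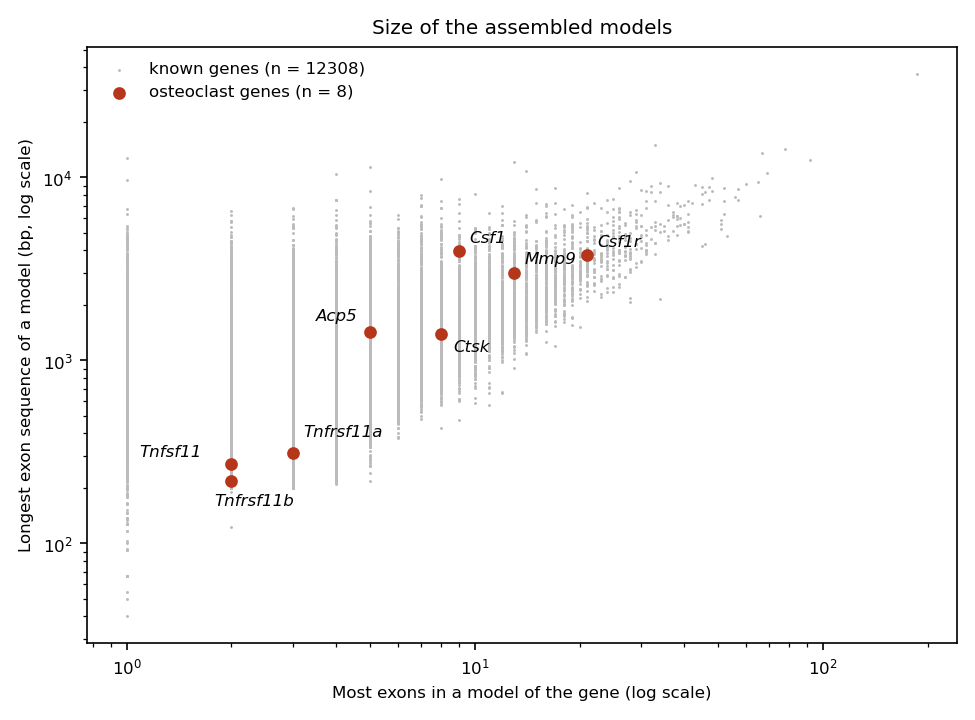
Most exons in a model (horizontal, log scale) against the longest exon sequence of a model in bp (vertical, log scale), for 12308 known genes in grey and the 8 osteoclast genes with models in red. Csf1r lies at 21 exons and 3757 bp, Mmp9 at 13 exons and 3015 bp, and Tnfsf11, Tnfrsf11a and Tnfrsf11b lie together at 2 or 3 exons and under the 1012 bp that was the median of known genes.

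Over the 7 genes found by symbol, the median number of models was 2, the same as for known genes. The median of the longest exon sequence was 1435 bp against 1012 bp, and the median of the most exons was 8 against 5. The genes divided into 5 with a longest model from 1403 bp (Ctsk) to 3973 bp (Csf1) and the fragments of Tnfsf11 and Tnfrsf11b with 273 and 219 bp. Tnfrsf11a would join the fragments with 311 bp.

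A wider list of 43 osteoclast genes was set beside these genes, matched by current or older symbol. Of the 43, 30 had a model, 27 of them in both assemblies, and 17 had a full-chain model, while 9 of the 30 had contained fragments alone. The shares over known genes given above (76.9%, 38.6% and 27.3%) are the background of these counts and of those that follow. A model under the current or an older symbol was present for 36.0% of the 20978 protein-coding RefSeq genes with a symbol other than LOC and a number, whatever their tissue. Of the 6 further ligands and receptors, 5 had models and none of these a full chain. Of the 5, 4 were present as contained fragments alone, namely Lgr4 (another receptor for RANKL), Tnf, Wnt5a and Efnb2, and Il34 (the other ligand of Csf1r) was not found. Of 10 adaptors, co-receptors and kinases, 8 had models and 6 of these a full chain. Tyrobp, the adaptor that passes on co-stimulatory signals, and the kinase Syk had a full chain in both assemblies, whereas Trem2 and Fcer1g were not found. Of 11 transcription factors, 8 had models, all in both assemblies, and 5 had a full chain. Jun, Rela and Spi1, which encodes PU.1, had a full chain in both assemblies, and Fosl1, Mitf and Relb were not found. The model of Jun had 1 exon, so its class code and its number of samples refer to no intron.

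Of 4 genes of cell fusion, Cd47 had a full chain in both assemblies, and Dcstamp, Ocstamp and Atp6v0d2 were not found. Of 12 genes of acid secretion and resorption, 8 had models, all in both assemblies, and 5 had a full chain. Car2, the carbonic anhydrase that supplies protons, Cst3 and Anxa2 had a full chain in both assemblies. The proton pump subunit gene Tcirg1, Ostm1, Plekhm1 and the integrin gene Itgb3 were not found. Contained fragments alone were present for 2 genes, Clcn7 and the integrin gene Itgav. Genes of the list that are used by many cell types, such as Jun, Rela, Cst3 and Anxa2, do not mark osteoclasts.

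**Figure D4:**
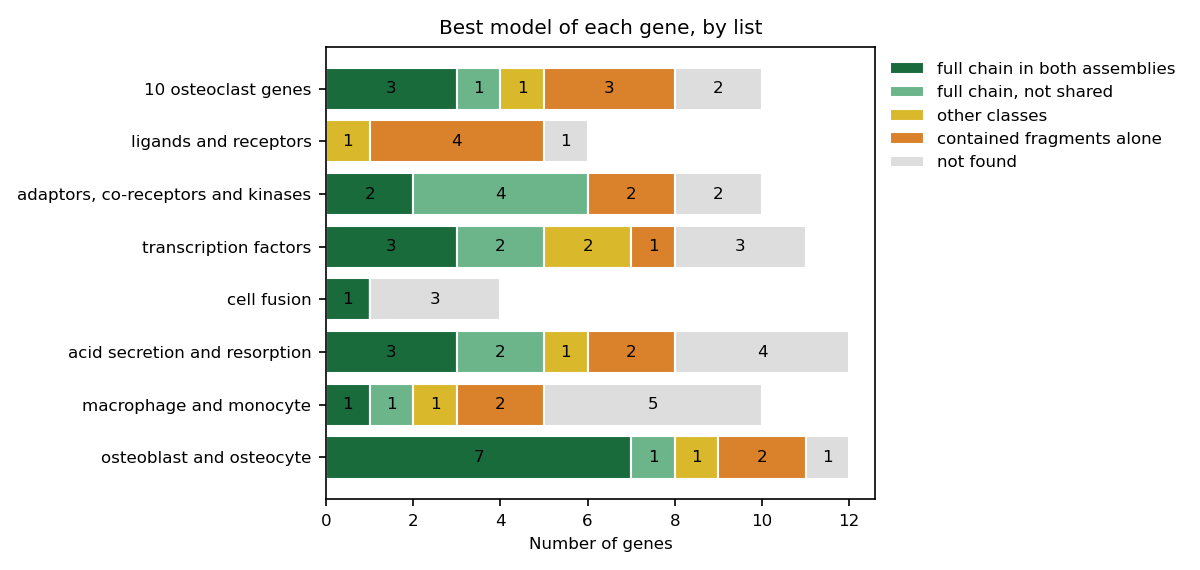
Number of genes by their best model for the 10 osteoclast genes, the 5 role groups of the wider osteoclast list and 2 lists of markers of other cells, with Tnfrsf11a counted under its older symbol. Full chains in both assemblies made up 3 of the 10 osteoclast genes and 7 of 12 osteoblast and osteocyte markers, and the group of ligands and receptors had none.

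Markers of other cells of the bone were counted in the same way. Of 12 osteoblast and osteocyte markers, 11 had models, 10 in both assemblies and 8 with a full chain. Of 10 macrophage and monocyte markers, 5 had models, all in both assemblies, and 2 had a full chain. Csf1r, Mmp9 and Acp5 are also expressed by macrophages, and a model does not show the cell that made the RNA. The part of other cells in the models of these genes was not tested.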

How the data were processed

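RNA-seq libraries of rat femur were made by the authors from total RNA with a SMARTer mRNA kit. Per the labels, FastQC, HISAT2, StringTie and featureCounts were used, with no version, and the build rn4 is named. The deposited annotation names its sequences by accession and no build, and a match with rn4 was not shown. These names, and gene names of the rCG series, are of the kind used for the Celera rat assembly, so the positions may lie on that assembly. They are given as the file gives them. Both deposited files hold other values than counts, namely start and end positions (1-based) of transcript models and of new genes. Depth is therefore unknown from these files. The planned values of expression were not computed.

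The 21 sequences were assigned to chromosomes by the genes on them, and 99.1% of 5339 names with a current symbol lay on the main chromosome of their sequence. On every sequence the model numbers ran through the plus and the minus strand and then again through both, and 0 models recorded in both assemblies fell in the second pass. The first pass was taken as the first assembly. Older symbols were used where they belonged to 1 gene alone in the RefSeq table (GRCr8), whose coordinates were not used other than for upstream sequences and gene order.

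The genes and lists were chosen with earlier results of these data known. Named were the 10 genes and, from the wider list, genes not found and genes with a full chain in both assemblies. A gene of the wider list is not reported here and was left out of its counts. Tnf, Lgr4, Wnt5a, Efnb2, Clcn7 and Itgav were named after their values were seen. Counts and medians are descriptions, and no test was run. The parser was tested on simulated data. Python 3.11.15 and matplotlib 3.10.9 were used.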

Additional observations from a re-analysis of the deposited data

How the results depend on the processing

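Counts were compared under other choices, and all stayed within 1.5 times the value reported. The number of genes with a model was 7, also with exact names and with 2 or more exons required, 8 with older symbols and 5 without contained fragments. Genes with models in both assemblies numbered 5, and 4 without contained fragments. The 4 genes with a shared model and the 4 with a full chain were as many under the alternatives run for them. The 12 models were 8 without contained fragments and 12 as distinct exon chains or with at least 200 bp. Several of these settings could not change a count and are no check of it. All 12 models had 2 or more exons and more than 200 bp, and none of the 7 names carried an ending. No contained fragment was shared, so leaving these out could not lower the number of genes with a shared model. Of the wider list, 30 genes had models and 27 by current symbol only. The median exon sequence per model was 1419 bp, 2364.5 bp without contained fragments, since these are short, and 1435 bp with the longest model of each gene.

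Alternatives that need expression values were not run, and no replicate was left out, since each group has 1 labelled sample. No paired analysis was possible because positions carry no sample. A missing model cannot be weighed without depth.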
